A study of Mus musculus with 2 samples.

Results

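The genes described here encode enzymes that make, interconvert and break down amino acids, and the carriers that move amino acids across cell membranes. They are 59 of the 44713 genes in the count table, taken by gene symbol from a list of enzymes and transporters whose rule uses no measured value, and all 59 were found. The list was drawn up with earlier results of these data known. They fall into 6 role groups: serine and glycine (11 genes), the urea cycle with arginine, proline and creatine (11), glutamine, glutamate and the aminotransferases (7), sulphur amino acids and methylation (6), branched-chain amino acids (4) and transporters (20). RNA of pancreatic islets was sequenced after removal of ribosomal RNA, and 1 library was analysed for each of 2 groups of mice on the C57BL/6 background. The db/db library came from mice labelled Lepr-/-, which lack a working leptin receptor and are a common model of obesity with type 2 diabetes. The db/m library came from their controls, which the labels call wild type, although db/m is also the usual name of a heterozygous carrier. The sources used here give no age, sex, diet or glycaemia, nor how many animals stand behind a library.

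Amino acids serve islet cells as fuel, as signals for hormone release and as building blocks for large amounts of exported protein. Acinar cells, which make the digestive enzymes of the pancreas, share that demand for protein synthesis and are known for strong amino acid uptake. Glutamine and glutamate connect the pool to the citric acid cycle, serine and glycine feed one-carbon metabolism, and the urea cycle clears ammonia, mostly in liver. When amino acids run short or proteins misfold, the factor ATF4 raises many of the genes for serine synthesis, cystine import and essential amino acid uptake.

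The db/db sample yielded 18233695 counts and the db/m sample 16271129. Levels are given as CPM, which are counts scaled to library size, here by the TMM method, which trims extreme genes before it compares libraries. On this scale 1 count equalled 0.0516 CPM in db/db and 0.0653 CPM in db/m. With 1 library in each group nothing here has a replicate check and no p-value is given. Each ratio of db/db over db/m carries a 95% interval for counting error alone, which describes these 2 libraries and not the genotypes, and reads copied by PCR would make it too narrow. A gene was called when its mean unscaled level was at least 1 CPM, its ratio was at least 2-fold and its interval excluded 1. Lepr itself had 3 counts in db/db and 4 in db/m, and the mutation changes one splice form, so whole-gene counts do not check the genotype label. The tissue label needs care, because 34 acinar markers took 73.1% of counts in db/db and 73.3% in db/m, whereas 7 islet hormone genes took 0.193% in db/db and 0.147% in db/m. Values below therefore describe a mixture in which acinar RNA prevailed.

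Of the 59 amino acid genes, 52 reached a mean of 1 CPM. In the db/db library 6 of these were higher and 0 were lower, and 46 were neither. Of the 6, Cps1 and Slc7a7 reached that mean only through the db/db library, in which they were high. The higher genes were Cps1 (urea cycle), Tdh (threonine breakdown), Slc7a7 (a cationic amino acid exporter), Glul (glutamine synthesis), Amt (glycine cleavage) and Gpt2 (alanine formation). The 6 genes were 11.5% of those compared, while among all 10300 genes compared 3.83% were higher, 4.04% lower and 7.87% called in either direction. Because of how the list and these genes came in, nothing is read from that excess. The median log2 ratio of the 52 genes was 0.08, beside 0.02 for all genes compared, and with a filter of 10 CPM it was 0.03, beside 0.04. Summed over all 59 genes, the level was 3521 CPM in db/db and 3450 CPM in db/m, a ratio of 1.02 (1.01 to 1.03) that was 1.15 (1.14 to 1.17) with total counts. In bulk RNA more cells of a type cannot be told apart from more RNA per cell, which holds for every ratio here.

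Most members had many counts, so that small differences were measured closely. With no limit on size, the interval lay above 1 for 23 members, below 1 for 15 and included 1 for 14. The interval thus excluded 1 for 73.1% of members, beside 38.9% of all genes compared, of which 20.7% were higher and 18.2% lower. Where the mean reached 10 CPM and counting error was smaller, the shares were 75.6% of 45 members and 51.8% of 4148 genes. At that level Glul and Gpt2 were higher, as was Tdh, which reached it only through db/db, and 0 were lower, while 0.868% of all such genes were higher and 2.29% lower. With a limit of 1.5-fold, 10 members were higher and 3 lower, beside 8.63% and 8.87% of all genes compared. Scaling by total counts shifted every log2 ratio up by 0.18 and turned the direction of 8 members that were not called, but changed none of the 6 calls. Over all genes the same scaling gave 564 higher and 277 lower genes, against 395 and 416 with TMM. Under all 4 scalings tried, 10 members kept an interval below 1: Ahcy, Arg2, Cbs, Gatm, Gcat, Glud1, Gpt, Psat1, Shmt2 and Slc38a5.

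**Figure D1:**
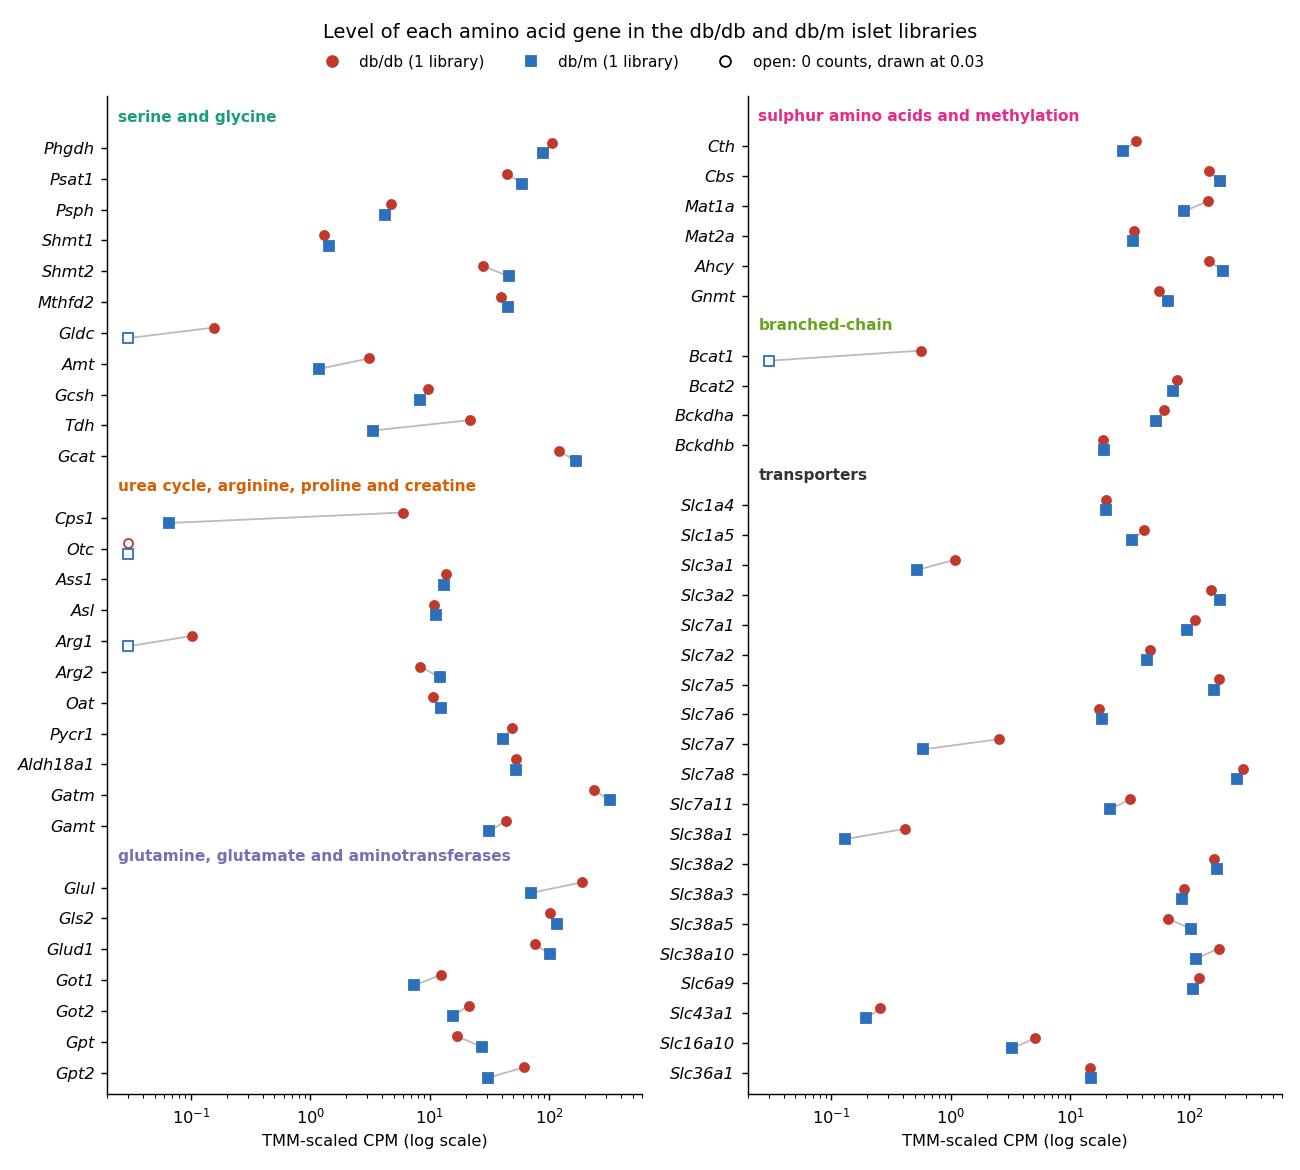
TMM-scaled level (CPM, log axis) of each amino acid gene in the db/db sample (circles) and the db/m sample (squares), grouped by role; open symbols mark 0 counts. Most pairs of symbols lie close together, and the widest gap is that of Cps1, at 5.94 CPM in db/db and 0.0653 CPM in db/m.

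Serine and glycine genes spread widely, with log2 ratios between -0.72 and 2.71 among 10 members compared. Of these, 2 were higher in db/db, 0 were lower, and the median log2 ratio was 0.00. Over all genes compared 3.83% were higher and 4.04% lower, shares that stand beside the calls of every role group below. The groups hold few genes, so nothing is read from their counts of calls. Tdh, the mitochondrial threonine dehydrogenase that opens the breakdown of threonine towards glycine in mice, had 423 counts (21.8 CPM) in db/db and 51 counts (3.33 CPM) in db/m. The db/db library was thus clearly the higher one, with a ratio of 6.56 (4.89 to 8.95). The gene lies on chromosome 14 from 63492347 to 63509092 in GRCm38, where RefSeq also places the long non-coding RNA Gm17232. Gcat, the ligase that splits the product of Tdh into glycine and acetyl-CoA, lay on the other side of 1. It had 2348 counts (121 CPM) in db/db and 2579 (168 CPM) in db/m, a ratio of 0.72 (0.68 to 0.761). Set against Gcat within each library, Tdh was at 0.18 counts per Gcat count in db/db and 0.0198 in db/m, a 9.11-fold difference (6.76 to 12.5) that no scaling of the libraries can alter.

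Glycine can also be broken down by the glycine cleavage system of mitochondria. Amt, the aminomethyltransferase of that system, had 60 counts (3.1 CPM) in db/db and 18 counts (1.18 CPM) in db/m. The db/db library was higher by 2.63-fold, with a wide interval of 1.53 to 4.74 that reflects the few counts (chromosome 9, 108296905 to 108302302). Gcsh, the lipoyl carrier protein of the same system, had 189 counts in db/db and 128 in db/m, a ratio of 1.17 (0.928 to 1.47) that could not be told from 1 at this depth. Gldc, the decarboxylase that starts the reaction, had 3 counts in db/db and 0 in db/m. The defining enzyme of glycine cleavage was therefore at or under the floor of 3 counts in both libraries.

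Serine synthesis from a glycolytic intermediate runs through Phgdh, Psat1 and Psph. Phgdh, the first enzyme, had 2033 counts (105 CPM) in db/db and 1369 (89.4 CPM) in db/m, a ratio of 1.17 (1.1 to 1.26). Psat1, the aminotransferase that follows it, had 850 counts (43.9 CPM) in db/db and 913 (59.6 CPM) in db/m, a ratio of 0.736 (0.669 to 0.809). Consecutive enzymes of one short pathway therefore lay on opposite sides of 1, and Psat1 per Phgdh count was 0.627 times as high in db/db as in db/m (0.557 to 0.705). Psph, the closing phosphatase, had 92 counts in db/db and 65 in db/m, and its interval included 1. Psph overlaps Cct6a, which had 362 counts in db/db and 313 in db/m, and the use of strand is not stated. Shmt2, which turns serine into glycine in mitochondria, showed the lowest ratio of all members compared, 0.607 (0.542 to 0.68), from 541 counts (27.9 CPM) in db/db and 704 (46 CPM) in db/m. Mthfd2, the next mitochondrial one-carbon enzyme, stood at 0.875 (0.789 to 0.972), which was 0.988 with total counts. The cytosolic Shmt1 had 25 counts in db/db and 22 in db/m, too few to show a difference of this size.

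Summed serine and glycine counts gave 378 CPM in db/db and 427 CPM in db/m, a ratio of 0.886 (0.857 to 0.916) that became 1 (0.967 to 1.03) with total counts. The sum thus has no direction that holds across scalings, and Gcat alone made up 32.1% of it in db/db and 39.5% in db/m.

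Cps1 gave the largest ratio of any member compared. This mitochondrial enzyme joins ammonia and bicarbonate into carbamoyl phosphate, the entry step of the urea cycle, and is known as a liver and small intestine gene. It had 115 counts (5.94 CPM) in db/db and 1 count (0.0653 CPM) in db/m. The ratio of 90.9 has an interval of 16 to 3621, since it rests on a single db/m count. The gene spans chromosome 1 from 67122426 to 67231267 in GRCm38, and no other gene of the RefSeq annotation overlaps it.

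The rest of the urea cycle did not share that difference. Otc, which uses carbamoyl phosphate to make citrulline, had 0 counts in both libraries. Ass1, which joins citrulline to aspartate, had 264 counts (13.6 CPM) in db/db and 202 (13.2 CPM) in db/m, a ratio of 1.03 (0.857 to 1.25). Asl, which then releases arginine, had 212 counts in db/db and 172 in db/m, a ratio of 0.974 (0.793 to 1.2). Arg1, the arginase of liver, had 2 counts in db/db and 0 in db/m. The mitochondrial arginase Arg2 had 162 counts in db/db and 186 in db/m, a ratio of 0.688 (0.554 to 0.854). Arg2 overlaps Vti1b, which had 223 counts in db/db and 204 in db/m, and the use of strand is not stated. Of the urea cycle enzymes, Cps1 was thus the 1 that was called.

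Because Cps1 marks hepatocytes and gut epithelium, 11 markers of those cells were read beside it. Of these, Apoa1, Serpina1c, Fabp1 and Fabp2 had 0 counts in both libraries. Alb had 25 counts in db/db and 28 in db/m, Apob had 2 in db/db and 3 in db/m, Serpina1a had 1 in db/db and 0 in db/m, and Fgb had 0 in db/db and 2 in db/m. Vil1, which brush border epithelia express, had 46 counts in db/db and 12 in db/m, a ratio of 3.03 (1.58 to 6.28). It was the 1 called marker of 4 compared, while 3.83% of all genes compared were higher. The list summed to 23.8 CPM in db/db and 18.5 CPM in db/m, of which Ttr, which endocrine islet cells also make, gave 65.8% in db/db and 49.5% in db/m. The gut marker Lgals4 had 84 counts in db/db and 98 in db/m. The sum had a ratio of 1.29 (1.11 to 1.5), and the part of such cells in the ratio of Cps1 was not tested.

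Other arginine and proline enzymes differed by under 1.5-fold. Gatm and Gamt make creatine in 2 steps from arginine, glycine and a methyl group, and Gatm is known for high levels in the exocrine pancreas. Gatm had 4582 counts (236 CPM) in db/db and 4913 (321 CPM) in db/m, the most counts of this group in both libraries, with a ratio of 0.737 (0.708 to 0.768). Gamt had 847 counts (43.7 CPM) in db/db and 481 (31.4 CPM) in db/m, a ratio of 1.39 (1.24 to 1.56). The 2 creatine enzymes thus lay on opposite sides of 1, and Gamt per Gatm count was 1.89-fold higher in db/db (1.67 to 2.13). Proline synthesis lay nearer to 1, with Aldh18a1, its first enzyme, at 0.99 (0.902 to 1.09) and Pycr1, its last, at 1.19 (1.08 to 1.32). Oat, which links ornithine to proline and glutamate, stood at 0.844 (0.69 to 1.03). The group summed to 431 CPM in db/db and 495 CPM in db/m, a ratio of 0.87 (0.844 to 0.898) that was 0.983 (0.952 to 1.01) with total counts.

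**Figure D2:**
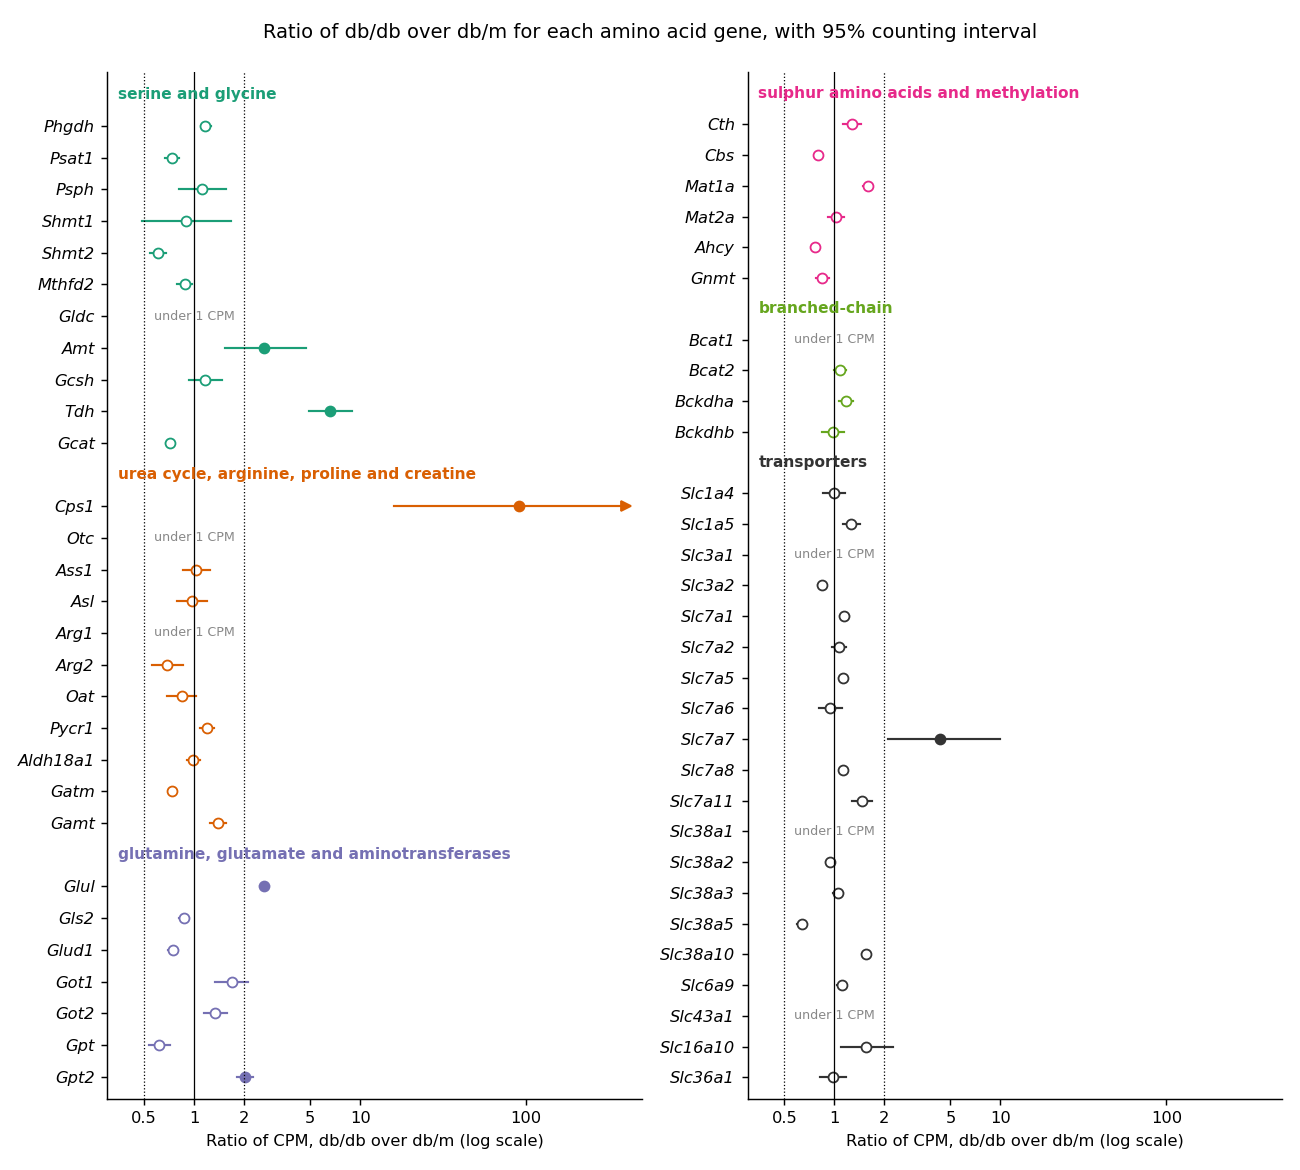
Ratio of db/db over db/m for each amino acid gene (log axis), with its 95% counting interval; filled points are the called genes, dotted lines mark 2-fold, and an arrow marks an interval that runs past the axis. All filled points lie to the right of 2, from Gpt2 at 2.01 to Cps1 at 90.9.

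Glutamine, glutamate and the aminotransferases formed the group whose summed level differed most, at 476 CPM in db/db and 369 CPM in db/m. The ratio of 1.29 (1.25 to 1.33) was between 1.28 and 1.45 under the 4 scalings. All 7 genes were compared, 2 were higher, and with TMM the interval excluded 1 for every one of the 7. Glul, glutamine synthetase, which joins ammonia to glutamate, had 3624 counts (187 CPM) in db/db and 1080 counts (70.5 CPM) in db/m. The db/db library was higher by 2.65-fold (2.48 to 2.84), and the gene lies on chromosome 1 from 153899929 to 153909723 in GRCm38. Glul held 39.3% of the group's counts in db/db and 19.1% in db/m. Without it, a sum added after the values were seen, the ratio of the group was 0.966 (0.929 to 1) with TMM and 1.09 (1.05 to 1.13) with total counts, so the difference of the sum rested on Glul.

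Gls2 and Glud1, which break down glutamine and glutamate, were on the other side of 1 with TMM. Gls2, a glutaminase that splits glutamine, had 1952 counts (101 CPM) in db/db and 1776 (116 CPM) in db/m, a ratio of 0.869 (0.814 to 0.927). With total counts the ratio of Gls2 was 0.981, and its interval no longer lay below 1. Glud1, the glutamate dehydrogenase that couples amino acids to insulin release in beta cells, had 1467 counts (75.7 CPM) in db/db and 1558 (102 CPM) in db/m, a ratio of 0.744 (0.692 to 0.8). Within each library Glul was at 1.86 counts per Gls2 count in db/db and 0.608 in db/m, a 3.05-fold difference (2.78 to 3.36). Per Glud1 count the difference of Glul was 3.56-fold (3.23 to 3.94).

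The 2 isoforms of alanine aminotransferase lay on opposite sides of 1. Gpt2, the mitochondrial alanine aminotransferase, had 1198 counts (61.8 CPM) in db/db and 470 (30.7 CPM) in db/m, a ratio of 2.01 (1.81 to 2.25) that stood just inside the 2-fold limit (chromosome 8, 85492576 to 85528902). Gpt, its cytosolic counterpart, had 329 counts (17 CPM) in db/db and 421 (27.5 CPM) in db/m, a ratio of 0.618 (0.533 to 0.715). Counts of Gpt2 per Gpt were 3.64 in db/db and 1.12 in db/m, which is 3.26-fold higher (2.71 to 3.92). The aspartate aminotransferases did not divide in this way. The cytosolic Got1 had 240 counts in db/db and 113 in db/m, a ratio of 1.68 (1.34 to 2.12), and the mitochondrial Got2 had 408 in db/db and 240 in db/m, a ratio of 1.34 (1.14 to 1.58). Their ratio to each other differed by 1.25-fold with an interval of 0.941 to 1.66, so a difference between these 2 isoforms was not detectable. A Got2 pseudogene, Got2-ps1, had 32 counts in db/db and 11 in db/m, and the sources used here do not say how shared reads were counted.

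The stretches before the annotated starts of Glul and Gpt2 are shown because these were the called members with the most counts in both libraries. Each is the 250 bases upstream of the start from RefSeq (GRCm38.p6), read 5′ to 3′ on the gene's own strand, which is the plus strand for both. Capitals mark the CCAAT box, a common promoter element, searched as CCAAT on both strands.
Glul, chr1:153899679-153899928: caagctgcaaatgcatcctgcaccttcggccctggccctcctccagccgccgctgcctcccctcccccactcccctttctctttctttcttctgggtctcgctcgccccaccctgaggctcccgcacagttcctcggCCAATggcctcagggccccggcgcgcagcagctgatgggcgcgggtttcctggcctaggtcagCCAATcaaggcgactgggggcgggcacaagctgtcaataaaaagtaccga
Gpt2, chr8:85492326-85492575: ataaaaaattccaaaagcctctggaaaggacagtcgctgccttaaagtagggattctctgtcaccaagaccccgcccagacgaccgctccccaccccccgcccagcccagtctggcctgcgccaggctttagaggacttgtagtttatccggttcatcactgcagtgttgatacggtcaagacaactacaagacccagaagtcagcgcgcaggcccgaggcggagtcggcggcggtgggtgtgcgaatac
The Glul window held 2 matches and the Gpt2 window 0. A match occurred in 24 of 57 windows of amino acid genes (42.1%) and in 33.8% of all 32851 windows of this length. Their GC content was 64.8% for Glul and 57.6% for Gpt2, beside a median of 52.4% over all windows.

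Methionine and sulphur amino acid genes gave 0 calls among 6 compared, with log2 ratios from -0.38 to 0.67 and a median of -0.11. Mat1a and Mat2a encode catalytic subunits that make S-adenosylmethionine, the methyl donor of the cell, and Mat1a is best known from liver. Mat1a had 2775 counts (143 CPM) in db/db and 1382 (90.3 CPM) in db/m, a ratio of 1.59 (1.49 to 1.69). Mat2a had 668 counts in db/db and 517 in db/m, a ratio of 1.02 (0.909 to 1.15). The 2 isoforms thus differed, and Mat1a per Mat2a count was 1.55-fold higher in db/db (1.36 to 1.78). Mat2a overlaps Ggcx, which stood at 315 counts in db/db and 145 in db/m, and the sources used here do not say whether strand was used.

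Gnmt, which spends the methyl donor, and Ahcy, which clears its product, had ratios below 1 with TMM, unlike the methyltransferase Gamt described above. Gnmt, a glycine methyltransferase abundant in liver and pancreas, had 1072 counts (55.3 CPM) in db/db and 1003 (65.5 CPM) in db/m, a ratio of 0.845 (0.774 to 0.922). With total counts the ratio of Gnmt was 0.954, and its interval no longer lay below 1. Ahcy, which hydrolyses S-adenosylhomocysteine, had 2828 counts (146 CPM) in db/db and 2914 (190 CPM) in db/m, the most counts of the group taken over both libraries. Its ratio was 0.767 (0.728 to 0.808). Transsulphuration, the route from homocysteine to cysteine, was split again. Cbs, its first enzyme, had a ratio of 0.801 (0.76 to 0.845) from 2803 counts in db/db and 2765 in db/m, and Cth, its second, a ratio of 1.27 (1.12 to 1.44) from 685 counts in db/db and 426 in db/m. Cth per Cbs count was 1.59-fold higher in db/db (1.39 to 1.81).

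Branched-chain genes gave 0 calls among 3 compared, with log2 ratios from -0.02 to 0.23. They summed to 160 CPM in db/db and 144 CPM in db/m, a ratio of 1.11 (1.05 to 1.17) that was 1.25 (1.18 to 1.32) with total counts. Bcat2, the mitochondrial aminotransferase that starts the breakdown of leucine, isoleucine and valine, had 1524 counts (78.7 CPM) in db/db and 1114 (72.7 CPM) in db/m, a ratio of 1.08 (1 to 1.17). Bckdha and Bckdhb encode the subunits of the dehydrogenase that commits the carbon skeletons to oxidation. Their ratios were 1.17 (1.07 to 1.29) and 0.985 (0.843 to 1.15), and Bckdhb per Bckdha count was 0.839 times as high in db/db as in db/m (0.7 to 1.01). Bcat1, the cytosolic aminotransferase, had 11 counts in db/db and 0 in db/m and did not reach 1 CPM. Set against a floor of 3 counts in db/m its ratio was 2.9, and the counting interval of 11 against 0 counts began at 1.98.

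**Figure D3:**
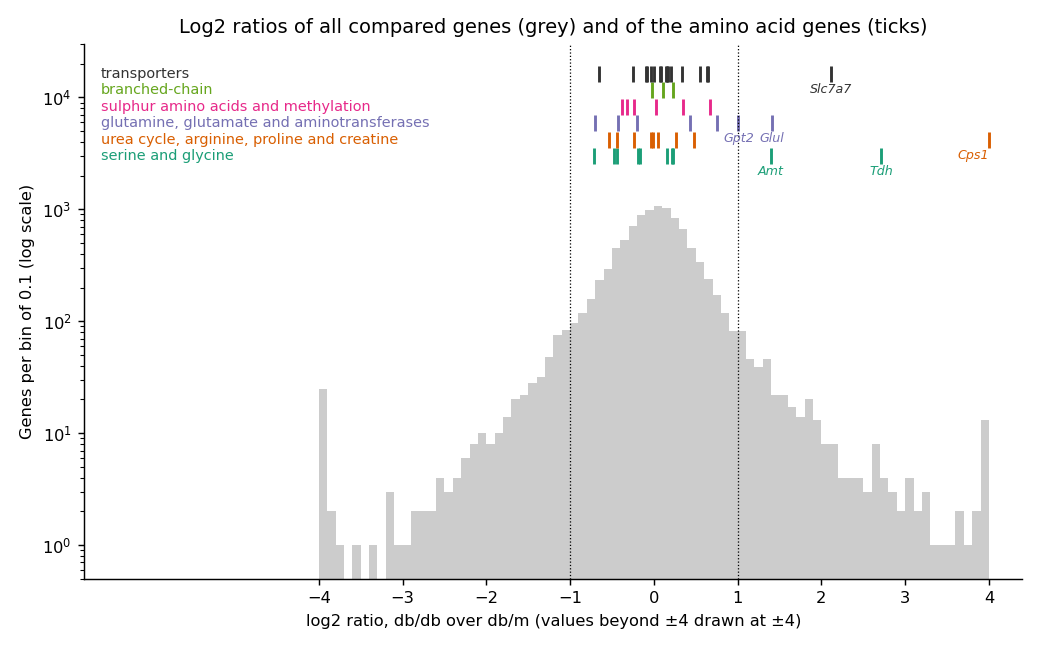
Log2 ratios of db/db over db/m for the 10300 genes compared (grey bars, number of genes per bin of 0.1, log axis) and for the 52 amino acid genes compared (ticks, one row per role group). The ticks cluster near 0 between -0.72 and 0.75, and the 6 named genes lie beyond 1; Cps1, at 6.51, is drawn at 4.

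Transporters had 17 of 20 members compared, of which 1 was higher, 0 were lower and 16 were neither. The median of their log2 ratios was 0.15, and their summed level was 1517 CPM in db/db and 1426 CPM in db/m. That ratio of 1.06 (1.05 to 1.08) was between 1.06 and 1.2 under the 4 scalings. Slc7a7, a light chain that pairs with the heavy chain Slc3a2 to export cationic amino acids in exchange for neutral ones, was the 1 called member. It had 49 counts (2.53 CPM) in db/db and 9 counts (0.588 CPM) in db/m, which makes db/db higher by 4.3-fold (2.09 to 9.96). Macrophages are known to express this gene, and it spans chromosome 14 from 54369442 to 54420068, where it overlaps Oxa1l. Oxa1l had 341 counts in db/db and 265 in db/m, a ratio of 1.02.

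Immune markers were read beside Slc7a7. Of 11 found, 2 reached 1 CPM, and the list summed to 9.55 CPM in db/db and 8.03 CPM in db/m, a ratio of 1.19 (0.941 to 1.51). The 2 were Lyz2 and Ptprc. Ptprc had 25 counts in db/db and 27 in db/m, a ratio of 0.732 (0.407 to 1.31). Among myeloid markers, Lyz2 had 95 counts in db/db and 33 in db/m and was called higher, and Csf1r had 18 in db/db and 3 in db/m. In contrast Cd68 had 2 counts in db/db and 12 in db/m. Cd14 had 10 counts in db/db and 3 in db/m, C1qb had 2 in db/db and 5 in db/m, and C1qa had 13 in db/db and 11 in db/m. The intervals of Cd14, C1qb and C1qa included 1. The single markers thus did not share a direction, and their part in the ratio of Slc7a7 was not tested.

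The heavy chain Slc3a2 and its other partners were not called. Slc3a2 had 2930 counts (151 CPM) in db/db and 2753 (180 CPM) in db/m, a ratio of 0.841 (0.798 to 0.886) that was 0.95 with total counts. Slc7a8, a carrier of neutral amino acids, had 5470 counts (282 CPM) in db/db and 3848 (251 CPM) in db/m, the most counts of any member in db/db, and a ratio of 1.12 (1.08 to 1.17). Slc7a5, which imports large neutral amino acids such as leucine, had 3458 counts in db/db and 2444 in db/m, a ratio of 1.12 (1.06 to 1.18). Slc7a11, which imports cystine in exchange for glutamate, had 620 counts (32 CPM) in db/db and 334 (21.8 CPM) in db/m, a ratio of 1.47 (1.28 to 1.68). Slc7a6 was at 0.944 (0.804 to 1.11). Counts of the 5 light chains per Slc3a2 count were set against each other between the libraries. They were higher in db/db by 1.33-fold for Slc7a5 (1.23 to 1.43), 1.34-fold for Slc7a8 (1.25 to 1.43), 1.74-fold for Slc7a11 (1.51 to 2.02) and 5.12-fold for Slc7a7 (2.48 to 11.9), and stood at 1.12 for Slc7a6, whose interval of 0.947 to 1.33 included 1. These ratios share the Slc3a2 counts and are not independent of each other.

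Sodium-coupled glutamine carriers of the Slc38 family did not share a direction. Slc38a5, a glutamine carrier, had 1276 counts (65.9 CPM) in db/db and 1583 (103 CPM) in db/m, the lowest ratio among the transporters at 0.637 (0.591 to 0.686). Slc38a3, which carries the same amino acids, had 1757 counts (90.7 CPM) in db/db and 1319 (86.1 CPM) in db/m, a ratio of 1.05 (0.98 to 1.13). Slc38a5 per Slc38a3 count was 0.605 times as high in db/db as in db/m (0.545 to 0.671). Slc38a2, which cells raise when amino acids are scarce, stood at 0.94 (0.892 to 0.991) with TMM and at 1.06 with total counts. Slc38a10 had 3405 counts (176 CPM) in db/db and 1736 (113 CPM) in db/m, a ratio of 1.55 (1.46 to 1.64). Slc38a1 had 8 counts in db/db and 2 in db/m, with a ratio of 3.16 (0.631 to 30.6).

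The other carriers compared had ratios between 0.983 and 1.56. Slc7a1 and Slc7a2, carriers of arginine and lysine, had ratios of 1.15 (1.08 to 1.23) and 1.06 (0.962 to 1.18). The neutral exchangers Slc1a5 and Slc1a4 stood at 1.26 (1.13 to 1.42) and 0.998 (0.857 to 1.16). Slc6a9, the glycine transporter, was at 1.11 (1.04 to 1.18) from 2313 counts in db/db and 1649 in db/m. Slc16a10, an aromatic amino acid carrier, had 99 counts in db/db and 50 in db/m, a ratio of 1.56 (1.1 to 2.25). The lysosomal carrier Slc36a1 was at 0.983 (0.823 to 1.17). Slc3a1, the heavy chain of the renal cystine transporter, had 21 counts in db/db and 8 in db/m, and Slc43a1, a neutral amino acid carrier gene, had 5 in db/db and 3 in db/m, so neither reached 1 CPM.

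**Figure D4:**
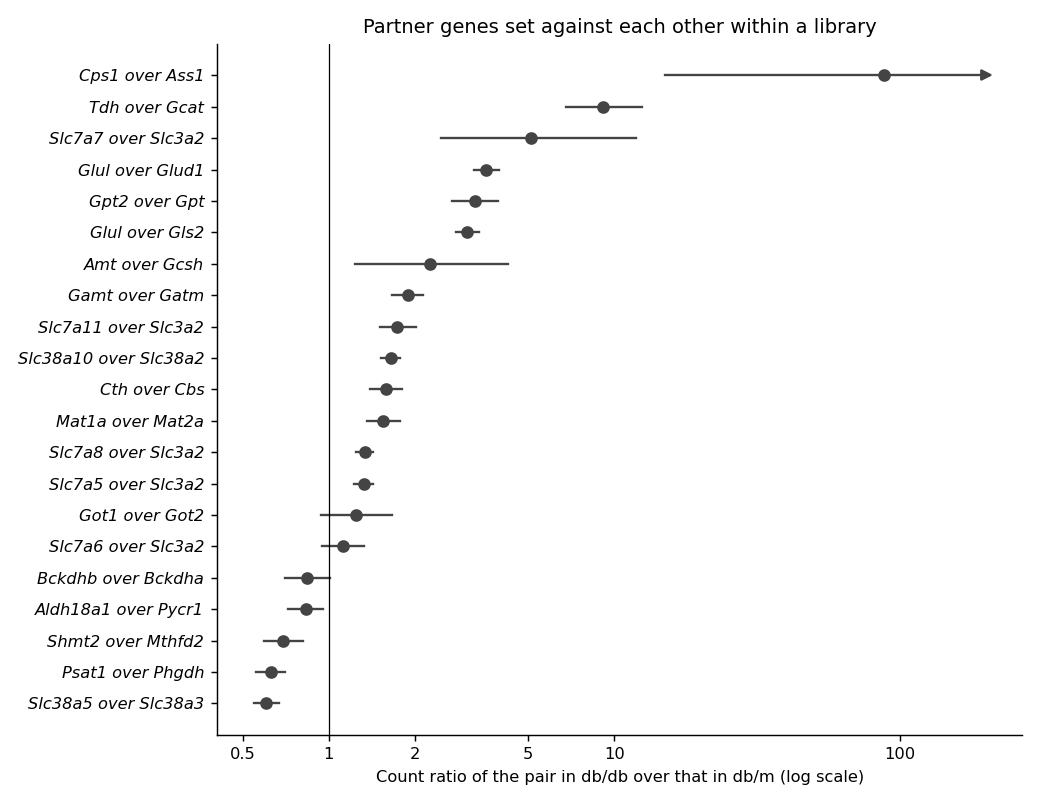
Partner genes set against each other: the count ratio of each pair in db/db over the same ratio in db/m (log axis), with its 95% interval from counting error. Of 21 pairs, 14 intervals lie above 1, 4 below 1 and 3 include 1; the arrow marks an interval that runs past the axis.

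In 21 pairs of members that share a reaction, a complex, a pathway or a transporter family, the ratio within each library was compared. Library scaling and gene length cancel there. The pairs were chosen after the values were seen, and the intervals cover counting error. The ratio of the pair was higher in db/db with an interval above 1 in 14 pairs, lower with an interval below 1 in 4 (which gene of a pair is on top sets the side), and 3 included 1, namely Got1 with Got2, Bckdhb with Bckdha and Slc7a6 with Slc3a2. The widest differences were those of pairs that hold a called gene, with Cps1 over Ass1 at 88-fold (15.1 to 3522).

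The element that ATF4 dimers bind, called the C/EBP-ATF response element, was searched as TGATGNAAN on both strands in windows from 250 bases before to 50 after each RefSeq start (GRCm38.p6). Windows were at hand for 45 of the 59 members, 57 windows in all. A match was found in 6 windows (10.5%) of 5 members, Got1, Pycr1, Slc1a4, Slc7a11 and Slc7a7, and in 3.95% of all 32851 windows. The sites are shown because several of these genes are textbook targets of ATF4. They run 5′ to 3′ on the gene's strand, which is the minus strand for all 5, with the matched element in capitals and 10 bases on each side.
Got1, chr19:43524690-43524718, element on the other strand: cattgcattgGTTGCATCAtacaagcctc
Pycr1, chr11:120643833-120643861, element on the gene's strand: gccctgtgtaTGATGCAATgcacaaggct
Slc1a4, chr11:20332700-20332728, element on the other strand: tgcctcctgcGTTGCATCAtctccagcct
Slc7a11, chr3:50443661-50443689, element on the gene's strand: ctcatgtggcTGATGCAAAcctggagaat
Slc7a11, chr3:50443643-50443671, element on the other strand: acctggagaaTTTGCATCAtcatgcagcc
Slc7a7, chr14:54418067-54418095, element on the gene's strand: cgcttgggctTGATGAAAGgttcactggg
Slc7a7, chr14:54417927-54417955, element on the gene's strand: acctagaagcTGATGCAACagcttccccg
The 5 genes had ratios of 1.68 (Got1), 1.19 (Pycr1), 0.998 (Slc1a4), 1.47 (Slc7a11) and 4.3 (Slc7a7). A palindromic cAMP response element, TGACGTCA, was found in 0 of the 57 windows and in 1.79% of all windows. A match names letters in a window and not a bound site.

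Beyond the members, the amino acid response itself showed no common direction. Atf4 had 2056 counts (106 CPM) in db/db and 1569 (102 CPM) in db/m, a ratio of 1.04 (0.969 to 1.11). Of 21 compared genes on a list of ATF4 and amino acid response genes, 1 was higher and 4 were lower. That is 23.8% called, beside 7.87% of all genes compared, on a list chosen with earlier results of these data known. The median log2 ratio of the list was 0.20, beside 0.02 for all genes compared. The higher gene was Trib3, a pseudokinase that ATF4 induces, with 232 counts in db/db and 39 in db/m. The lower genes were Atf3, Ppp1r15a, Ddit4 and Fgf21, which are all known to respond to stress. Atf3 had 39 counts in db/db and 723 in db/m, Ppp1r15a had 137 in db/db and 337 in db/m, Ddit4 had 81 in db/db and 153 in db/m, and Fgf21 had 126 in db/db and 234 in db/m. The median of the list was thus above 0 although most of its called genes were lower. Its ratios lay above 1 for 12 of the 21 genes and below 1 for 9. Among those not called, Chac1 was at 1.61 (1.4 to 1.84), Sesn2 at 1.71 (1.25 to 2.37) and Herpud1 at 1.6 (1.55 to 1.65). Asns, asparagine synthetase and a classic target of ATF4, had 4156 counts (215 CPM) in db/db and 4959 (324 CPM) in db/m, a ratio of 0.662 (0.635 to 0.69). Aminoacyl-tRNA synthetases, which load amino acids onto transfer RNA, gave 0 calls in 34 compared genes and a median log2 ratio of -0.05.

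Further genes of amino acid metabolism and transport, 126 in the table and none of them a member, were read in the same way. Of 70 compared, 3 were higher, 2 were lower and 65 were neither, which is 7.14% called, beside the 7.87% of all genes, and their median log2 ratio was 0.01. The higher genes were Ckb, brain creatine kinase, at 3.95-fold (1.62 to 11.6), the carrier gene Slc7a14 at 2.31-fold (1.74 to 3.1) and the neutral amino acid carrier gene Slc6a15 at 2.16-fold (1.05 to 4.77). The lower genes were Gad1, which makes the transmitter GABA from glutamate in beta cells, with 15 counts in db/db and 60 in db/m, and the peptide carrier gene Slc15a2, with 24 in db/db and 40 in db/m. Nags, whose product activates Cps1, had 10 counts in db/db and 7 in db/m.

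Markers of pancreatic cell types differed between the libraries beside these genes. Among all 10300 genes compared, 3.83% were higher and 4.04% lower. Of 7 compared markers of endocrine cells other than beta cells, 5 were higher in db/db, and the list summed to 313 CPM in db/db and 75.9 CPM in db/m, a ratio of 4.12 (3.87 to 4.39), with glucagon (Gcg) giving 62.6% of the counts in db/db and 64.7% in db/m. Of 16 beta cell markers, 6 were lower and 0 higher, although their sum, led by Ins2, was at 1.01 (0.993 to 1.02). Of the 34 acinar markers, 3 were higher and 4 lower, and their sum was at 0.883 (0.882 to 0.883) on the TMM scale. The sum of all genes in the table was at 0.886 on that scale. As a share of total counts the acinar markers took 73.1% in db/db and 73.3% in db/m, so their sum did not stand apart from the whole library. Of 10 duct markers 0 were called, and their sum was lower at 0.694 (0.671 to 0.719). Endothelial markers summed to 8.31 CPM in db/db and 11.8 CPM in db/m and stellate cell markers to 12.3 CPM in db/db and 11.5 CPM in db/m, while 4 of 6 adipocyte markers had 0 counts in both libraries. The part of these cell types in the ratios of the amino acid genes was not tested.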

How the data were processed

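The authors deposited raw counts, in whole numbers, for every gene in 1 column per library. Alignment with HISAT2 2.0.4 and the builds mm10 and GRCm38 are named, per the submitters' processing notes. Neither the program that counted reads, nor its annotation, nor its use of strand is stated in the sources used here. Libraries were grouped by their titles. The series describes triplicates, and 1 library per group was analysed here. TMM scaling used edgeR 4.0.16 in R 4.3.3. Ratios have exact Clopper-Pearson 95% intervals on the share of counts, and pair ratios exact conditional ones (scipy 1.17.1 in Python 3.11.15). A count of 0 was replaced by a floor of at most 3 counts. The procedure was tested on simulated data with counting error only and total counts as library sizes, so TMM scaling was not tested. Genes raised 3-fold or 8-fold in db/db were all called, and some of those lowered as much were not. The change was applied to db/db alone, so lowered genes also lost mean level, on which the filter of 1 CPM acts. That difference between raised and lowered genes therefore depends on how the simulation was set. Alternatives were total counts, DESeq2 1.42.0 size factors, total counts without acinar and hormone genes, other filters on low counts and other call limits. Members and lists were chosen with earlier results of these data known. The rule for named genes was to describe every called member and, in each comparison list, the called genes; others were named after their values were seen. Exon lengths were not used here, so levels are not compared between genes. All 59 members were matched by symbol to RefSeq (GRCm38.p6); 22 overlap another annotated gene, 9 of them a protein-coding one.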

Additional observations from a re-analysis of the deposited data

How the results depend on the processing

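No paired analysis was possible because each group had 1 library, and for the same reason no replicate could be left out. The 6 higher and 0 lower amino acid genes were the same in number under total counts, DESeq2 size factors and total counts without acinar and hormone genes. Higher members numbered 7 with no filter on low counts (Bcat1 added), 3 with a filter of 10 CPM, 10 with a 1.5-fold limit, 3 with a 4-fold limit and 4 with an interval beyond 2-fold, where Gpt2 and Amt were lost. Lower members numbered 3 at 1.5-fold (Shmt2, Gpt and Slc38a5) and 0 under the other settings. The members' median log2 ratio was 0.26 with total counts, 0.25 without acinar and hormone genes, 0.07 with DESeq2 size factors, 0.10 with no filter and 0.03 with 10 CPM. The median of all genes was -0.12 with no filter and 0.04 with 10 CPM, so that the members' median less that of all genes was 0.06 with TMM, 0.22 with no filter and -0.01 with 10 CPM. A scaling shifts both medians alike and cannot alter that difference by itself.

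Over all genes, 277 were lower with total counts. With no filter 745 were higher and 814 lower, with 10 CPM 36 and 95, at 1.5-fold 889 and 914, at 4-fold 78 and 76, and with an interval beyond 2-fold 99 and 137. With fewer than 20 counts in a library, as for Amt, Slc7a7 and Cps1 in db/m, intervals are wide and the size of the ratio is poorly known.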
